A study of Homo sapiens with 9 samples.

Results

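Messenger RNA levels of 8 genes of the interferon response were measured in the line H295R, derived from a human adrenocortical carcinoma and able to make aldosterone and cortisol, after 3 h with a compound or its solvent. The genes were chosen by symbol and are the 4 IFIT genes IFIT1, IFIT2, IFIT3 and IFIT5, the effectors ISG15, MX1 and OAS1, and the transcription factor IRF1. They are 8 of 19775 genes that the arrays measured by a probe set of a single gene symbol. The cells received 100 nM torcetrapib, which the labels call by its code name CP-529414 and which inhibits the cholesteryl ester transfer protein, or 100 nM angiotensin II, the peptide hormone that drives aldosterone secretion, or DMSO alone. Each of the 3 groups held 3 arrays of this same line at this same time. The study asked whether such an inhibitor switches on the renin-angiotensin-aldosterone system in adrenal cells. The labels do not state whether the replicates were separate cultures. A p-value here therefore sets a difference only against the spread among these 9 samples, which may be technical.

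The values are log2 expression after robust multi-array averaging (RMA), a method that puts the arrays of a study on a shared scale. A gene was represented by the probe set selected on its mean over all 9 arrays, the brightest, and the other probe sets of a member are given beside it. The fall of IFIT2 with angiotensin II was known when the members were drawn up, so every IFIT2 value that involves the angiotensin II arrays is given as a description, with no test. Levels of different probe sets are not compared, because probes bind with unequal strength.

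Interferons are secreted proteins that warn cells of viral infection. Their receptors activate JAK kinases and STAT proteins, which with IRF9 bind an interferon-stimulated response element (ISRE) in front of genes such as the IFIT genes, and many of the same genes also answer IRF3 directly when a cell senses foreign nucleic acid. IFIT proteins recognise foreign RNA or hinder its translation, and IFIT1, IFIT2 and IFIT3 assemble into complexes with each other, whereas IFIT5 works alone. ISG15 is a ubiquitin-like modifier, MX1 a dynamin-like GTPase that traps viral particles, and OAS1 an enzyme that makes a short nucleotide messenger when it meets foreign RNA. IRF1 is a transcription factor that interferon gamma induces through a gamma-activated site (GAS), and that can drive interferon-induced genes by itself.

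The 4 IFIT genes lie close to each other on chromosome 10 of GRCh38.p14: IFIT2 from 89302046 to 89309271, IFIT3 from 89327997 to 89340968, IFIT1 from 89392623 to 89406487 and IFIT5 from 89414568 to 89420997. ISG15 is on chromosome 1 (1013497 to 1014540), IRF1 on chromosome 5 (132481609 to 132490773), OAS1 on chromosome 12 (112906962 to 112933219) and MX1 on chromosome 21 (41420558 to 41459214). These positions and the promoter sequences are from RefSeq, which held a promoter window for 7 of the 8 members.

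The stretches in front of 5 members are shown because IFIT3 and IFIT1 are the members with a tested fall, IFIT5 is their neighbour, ISG15 is another target of the ISRE, and IRF1 was on the other side of DMSO from the IFIT genes. Each runs over 190 bases, from position -190 to position -1 before the start of the gene, on the strand of the gene. They span chr10:89327807-89327996, chr10:89392433-89392622, chr10:89414378-89414567 and chr1:1013307-1013496 on the plus strand and chr5:132490774-132490963 on the minus strand. Capitals mark GAAANNGAAA on either strand, the core of an ISRE, in the first 4, and TTCNNNGAA, the core of a GAS, in the last.
IFIT3: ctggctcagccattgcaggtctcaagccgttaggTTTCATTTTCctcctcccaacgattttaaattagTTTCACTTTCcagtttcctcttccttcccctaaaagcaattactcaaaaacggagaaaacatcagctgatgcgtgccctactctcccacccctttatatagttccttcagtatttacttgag
IFIT1: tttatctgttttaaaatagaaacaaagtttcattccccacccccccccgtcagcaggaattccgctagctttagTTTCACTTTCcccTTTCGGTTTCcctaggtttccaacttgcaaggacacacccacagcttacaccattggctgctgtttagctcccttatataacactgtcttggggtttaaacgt
IFIT5: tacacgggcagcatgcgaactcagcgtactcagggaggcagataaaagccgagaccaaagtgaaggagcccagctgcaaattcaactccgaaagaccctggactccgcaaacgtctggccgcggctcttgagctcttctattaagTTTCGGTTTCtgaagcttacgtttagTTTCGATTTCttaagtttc
ISG15: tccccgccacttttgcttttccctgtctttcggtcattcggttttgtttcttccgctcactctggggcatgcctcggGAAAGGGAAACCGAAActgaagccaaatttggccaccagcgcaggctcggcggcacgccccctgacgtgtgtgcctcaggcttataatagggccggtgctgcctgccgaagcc
IRF1: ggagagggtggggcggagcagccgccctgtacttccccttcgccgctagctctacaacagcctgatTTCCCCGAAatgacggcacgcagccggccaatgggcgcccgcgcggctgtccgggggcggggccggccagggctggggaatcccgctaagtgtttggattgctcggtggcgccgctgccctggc

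In a window of 300 bases around the first start of each gene, GAAANNGAAA was found on either strand in 5 of the 7 members with a window, and in 3.66% of 27305 genes. IFIT3 and IFIT1 each held 2 matches, and TTTCACTTTC occurred in both, at -122 to -113 in IFIT3 and at -116 to -107 in IFIT1. IFIT5 held 3, of which the last runs across the start and is not in capitals above. ISG15 held 2 that overlap in a single stretch from -113 to -98. MX1 held 1 match, just after its start at 12 to 21. OAS1 and IRF1 held none in these windows. The GAS core TTCNNNGAA, which reads the same on both strands, was found in IRF1 at -124 to -116 and in OAS1 at -168 to -160, and in 7.88% of genes. Windows at later starts were not counted. In those, IFIT3 held 2 ISRE core matches, and MX1 held 1 ISRE core match and 1 GAS core match. A match is a description of letters, and no binding was measured here.

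A coarse check of H295R identity came first, since probe sets differ in brightness for the same amount of RNA. The 7 measured adrenocortical markers read from 7.12 (NR5A1) to 11.98 (FDX1) as means over 9 arrays, and the leukocyte marker PTPRC read 3.50. The 4 leukocyte markers ran from 3.50 to 5.70, the 4 endothelial ones from 3.75 to 6.02 and the 4 fibroblast ones from 4.75 to 7.72, the highest being the collagen COL1A1. The lowest-quarter limit over all genes was 4.87 and the median gene read 6.73. An RNA index, the log2 signal of control probe sets at the start of the ACTB and GAPDH transcripts minus those at their end, lay from -0.28 to -0.22 on the torcetrapib arrays, from -0.63 to -0.60 on the angiotensin II arrays and from -0.72 to -0.28 on the DMSO arrays, where replicate 2 was the highest. All torcetrapib arrays lay above all DMSO arrays in this index, though the closest pair read -0.2751 and -0.2758. In such bulk samples fewer expressing cells and less RNA per cell cannot be told apart.

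**Figure D1:**
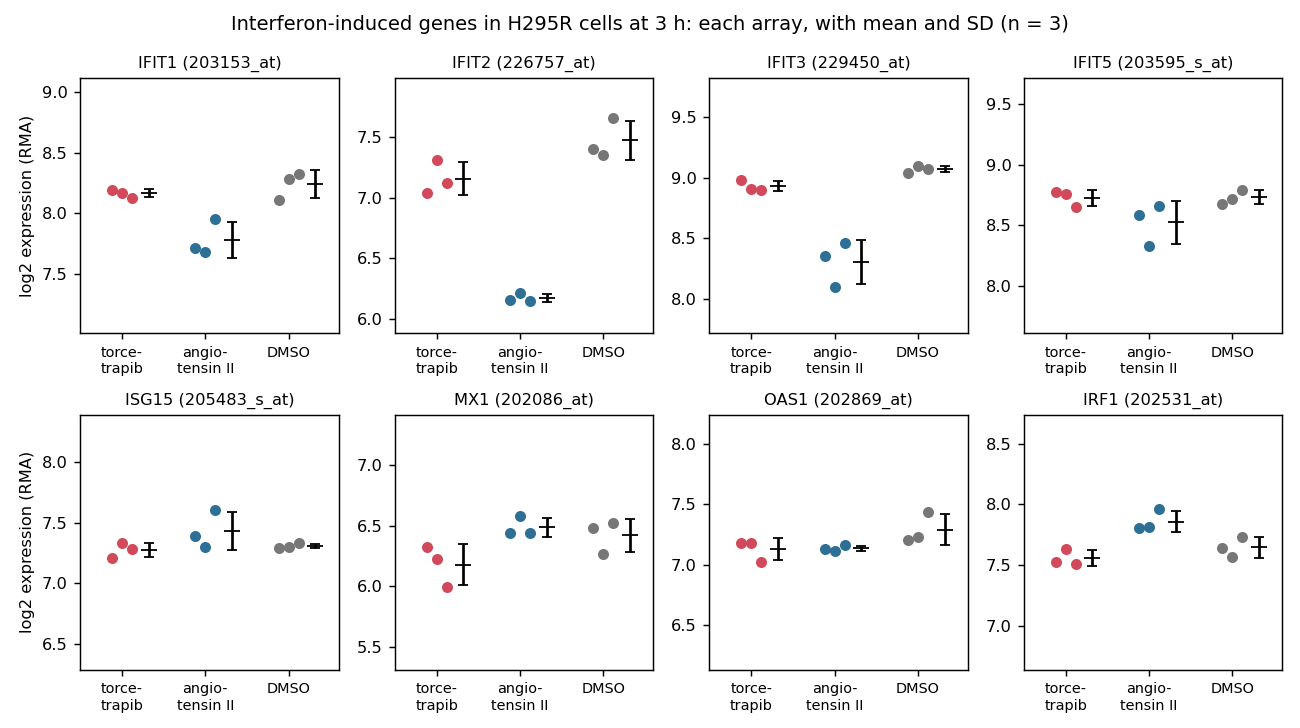
Log2 expression (RMA) of each member by its brightest probe set on every array, for torcetrapib, angiotensin II and DMSO. Points are arrays and the bar beside them is the mean with its SD (n = 3), and every panel spans the same height on the log2 scale. All angiotensin II arrays lie below all others in IFIT1, IFIT2 and IFIT3, and above all others in IRF1.

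The IFIT genes whose proteins form complexes were lower with angiotensin II than with DMSO. IFIT3 fell to a level 1.70-fold lower and IFIT1 to a level 1.37-fold lower, and IFIT2, given as a description, was 2.46-fold lower. IFIT5 was 1.15-fold lower and did not pass the test. IRF1, on the opposite side, was 1.16-fold higher and did not pass either. Limma with Benjamini-Hochberg adjustment over all genes put 2 of the 7 members other than IFIT2 below the 0.05 threshold, both lower, against 2.76% of all genes called lower and 3.36% called higher. That split over all genes depended on scaling, with 665 higher and 545 lower as deposited, 699 and 1019 with arrays centred on their medians, and 798 and 950 after quantile normalisation. Since the members were drawn up with results known, nothing is read from that count.

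IFIT2, which binds RNA and promotes cell death when overproduced, read 6.16, 6.21 and 6.15 on the angiotensin II arrays, against 7.40, 7.36 and 7.66 on the DMSO arrays. The groups were far apart, with every angiotensin II array more than a whole log2 unit under the lowest DMSO array. As a description, the change was -1.30 ± 0.10 (SE) on the log2 scale. Its second probe set read 6.19, 6.20 and 6.01 with angiotensin II and 6.38, 6.54 and 6.38 with DMSO, a smaller difference of -0.30 ± 0.10. Both probe sets put all angiotensin II arrays below all DMSO arrays.

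IFIT3, which stabilises IFIT1 on its RNA target, read 8.36, 8.10 and 8.46 on the angiotensin II arrays, against 9.04, 9.10 and 9.08 on the DMSO arrays. The DMSO arrays were close to each other, and the angiotensin II arrays lay wholly below them with a wider spread. The log2 change was -0.77 ± 0.08 (limma adjusted p = 7.90e-06, 95% interval -0.93 to -0.60). The second probe set read 6.94, 7.14 and 7.24 with angiotensin II and 7.51, 7.46 and 7.62 with DMSO. It changed by -0.42 ± 0.09 (limma adjusted p = 0.0199 over all 41091 probe sets tested, of which 3.63% were called), so both probe sets of IFIT3 fell.

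IFIT1, which binds RNA whose cap lacks the host's methyl mark, has a single probe set. It read 7.71, 7.68 and 7.95 on the angiotensin II arrays, against 8.11, 8.28 and 8.33 on the DMSO arrays. The groups did not overlap, with replicate 3 of angiotensin II and replicate 1 of DMSO the closest pair. The log2 change was -0.46 ± 0.08 (limma adjusted p = 0.00248, 95% interval -0.64 to -0.28).

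IFIT5, the member that binds RNA on its own, read 8.59, 8.32 and 8.66 with angiotensin II, against 8.68, 8.72 and 8.79 with DMSO. Its groups stood apart by a narrow margin, since the highest angiotensin II array was just under the lowest DMSO array. The change of -0.21 ± 0.08 did not pass (limma adjusted p = 0.191, 95% interval -0.38 to -0.03), though it did with the values quantile normalised again (adjusted p = 0.0421, range over its alternatives 0.0421 to 0.569). The second probe set gave -0.12 ± 0.09 with overlapping groups, and both probe sets are of the _s_at type, whose probes can bind several transcripts.

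Among the effectors beyond the IFIT genes, none passed the test with angiotensin II. ISG15 read 7.39, 7.30 and 7.60 with angiotensin II, against 7.30, 7.30 and 7.33 with DMSO, and its groups overlapped. The difference was 0.12 ± 0.09 with a 95% interval from -0.06 to 0.31. MX1 read 6.44, 6.58 and 6.44 with angiotensin II, against 6.48, 6.26 and 6.52 with DMSO, again with overlap. Its difference was 0.07 ± 0.11 (95% interval -0.16 to 0.29), and it took the other sign with array weights and without DMSO replicate 2.

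OAS1 read 7.13, 7.11 and 7.16 with angiotensin II, against 7.20, 7.23 and 7.44 with DMSO. Its groups did not overlap, by a narrow margin, and the difference of -0.16 ± 0.09 did not pass (limma adjusted p = 0.416). The second OAS1 probe set gave a larger difference of -0.46 ± 0.14, which did not pass either (limma adjusted p = 0.120 over all probe sets). With it, angiotensin II arrays read 6.20, 5.83 and 6.29, against 6.46, 6.41 and 6.83 with DMSO, so both probe sets lay lower on every angiotensin II array.

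IRF1 read 7.80, 7.81 and 7.96 on the angiotensin II arrays, against 7.64, 7.56 and 7.73 on the DMSO arrays. All angiotensin II arrays were above all DMSO arrays, and the second probe set showed the same order, with 6.99, 6.99 and 7.05 against 6.80, 6.63 and 6.86. The differences were 0.21 ± 0.08 and 0.24 ± 0.08. Neither passed (limma adjusted p = 0.148 over genes and 0.183 over probe sets). The first did with the values quantile normalised again (adjusted p = 0.0461, range 0.0461 to 0.324).

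Counted over the 8 members, 5 had angiotensin II arrays wholly below those of DMSO, which held for 8.37% of all genes, and 1, IRF1, had them wholly above, which held for 9.26%. The median member changed by -0.18 and the median of all genes by 0.01. IFIT2 is among the 5 and in the median, and its fall was known beforehand, so nothing is read from these values.

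**Figure D2:**
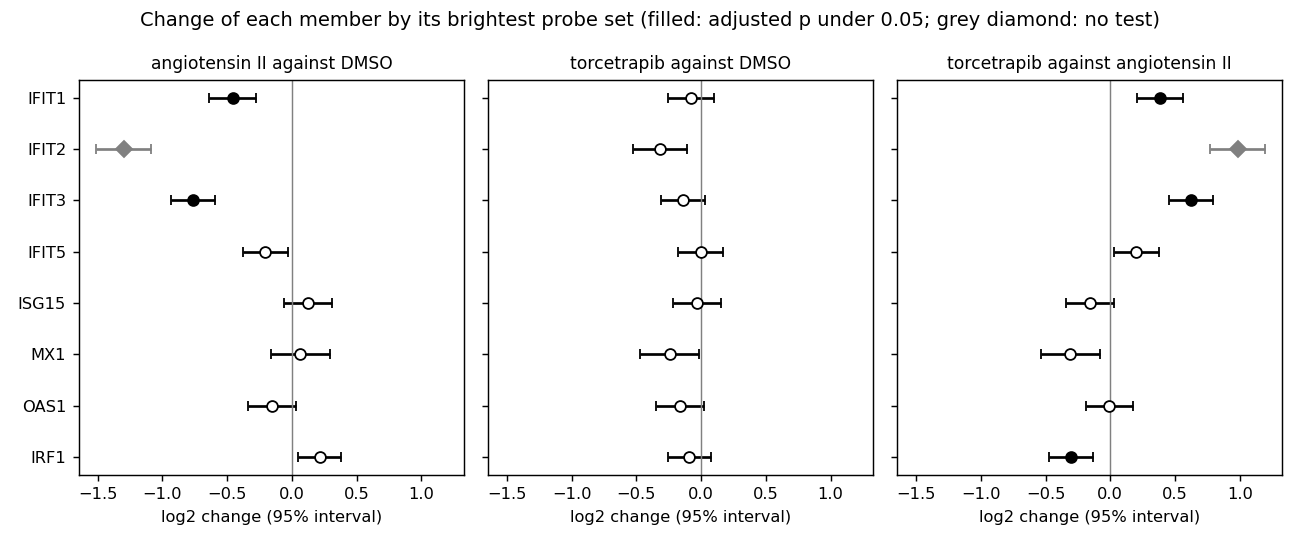
Log2 change of each member by its brightest probe set in the 3 comparisons, with 95% intervals from limma. Filled circles passed an adjusted p of 0.05, open circles did not, and grey diamonds are the IFIT2 values given with no test; IFIT1 and IFIT3 are lower with angiotensin II than with DMSO and higher with torcetrapib than with angiotensin II.

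Torcetrapib at the same dose and time left all 8 members without a call against DMSO. The largest difference was that of IFIT2, 1.25-fold lower than with DMSO, and the next was that of MX1, 1.18-fold lower. By limma 0 of 8 passed the adjusted threshold, where 1.16% of all genes did, and 2 of 8, IFIT2 and MX1, had an unadjusted p under 0.05. The share of all genes with such an unadjusted p was not counted, so nothing is read from those 2. The intervals say how large a change these arrays still allow.

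IFIT2 read 7.04, 7.31 and 7.12 on the torcetrapib arrays, against 7.40, 7.36 and 7.66 on the DMSO arrays. Every torcetrapib array lay below every DMSO array, the closest pair by little, and all lay far above the angiotensin II arrays. The log2 difference was -0.32 ± 0.10 (limma adjusted p = 0.156, 95% interval -0.53 to -0.11), and it passed only with array weights (adjusted p = 0.0425, range over its alternatives 0.0425 to 0.903). The same DMSO arrays entered the fall by which IFIT2 was known beforehand, so nothing is read from these p-values. For IFIT2 the difference from DMSO is a description. The second IFIT2 probe set had overlapping groups and a difference of 0.05 ± 0.10.

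IFIT3 read 8.98, 8.91 and 8.90 with torcetrapib, against 9.04, 9.10 and 9.08 with DMSO. These groups stood apart as well, by a narrow margin. The log2 difference was -0.14 ± 0.08 (limma adjusted p = 0.481, 95% interval -0.31 to 0.03), and the second probe set gave 0.00 ± 0.09. IFIT1 read 8.20, 8.17 and 8.13 with torcetrapib, inside the range of its DMSO arrays, with a difference of -0.08 ± 0.08 and a 95% interval from -0.25 to 0.10. IFIT5 read 8.77, 8.75 and 8.65 with torcetrapib, and overlapped DMSO with a difference of -0.0048 ± 0.08 (95% interval -0.18 to 0.17), whose sign turned with either scaling.

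ISG15 read 7.21, 7.33 and 7.28 with torcetrapib and overlapped DMSO, with a difference of -0.03 ± 0.09 (95% interval -0.22 to 0.15). MX1 read 6.32, 6.22 and 5.99 with torcetrapib, against 6.48, 6.26 and 6.52 with DMSO. Replicate 3 of torcetrapib was the lowest of the 9 arrays, and 1 torcetrapib array lay above DMSO replicate 2. The MX1 difference was -0.24 ± 0.11 (limma adjusted p = 0.337, 95% interval -0.47 to -0.02). With the RNA index in the model the MX1 difference was -0.10.

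OAS1 read 7.18, 7.18 and 7.02 with torcetrapib, wholly below its DMSO arrays, with a difference of -0.16 ± 0.09 (limma adjusted p = 0.441). Its second probe set showed no such order, with overlapping groups and a difference of 0.00 ± 0.14. IRF1 read 7.52, 7.63 and 7.51 with torcetrapib and overlapped DMSO, with a difference of -0.09 ± 0.08 (95% interval -0.26 to 0.08). The second IRF1 probe set went the other way, with 6.949, 7.005 and 6.920 wholly above its DMSO arrays and a difference of 0.19 ± 0.08 (limma adjusted p = 0.331 over all probe sets, of which 1.11% were called). In all, 3 of 8 members had torcetrapib arrays wholly below those of DMSO by their brightest probe sets, which held for 10.5% of all genes. The median member differed by -0.12 against a median of -0.03 over all genes. IFIT2 is among the 3 and in the median, and the members were drawn up with results known, so nothing is read from these values. Both comparisons use the same 3 DMSO arrays, so their values for a member are not independent.

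**Figure D3:**
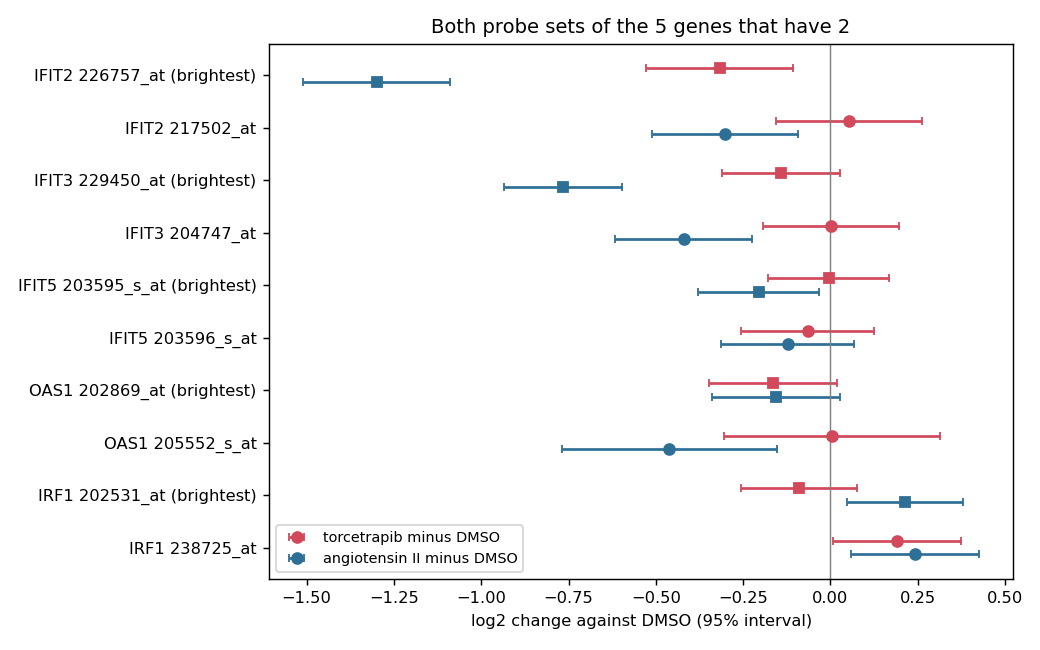
Log2 change against DMSO of both probe sets of the 5 members that have 2, for torcetrapib and angiotensin II, with 95% intervals. Squares are the brightest probe set of a gene and circles the other. With angiotensin II both probe sets of IFIT2, IFIT3, IFIT5 and OAS1 lie below 0, and both of IRF1 above. With torcetrapib the 2 probe sets lie on opposite sides of 0 in IFIT2, IFIT3, OAS1 and IRF1.

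Set directly against angiotensin II, the torcetrapib arrays were higher in the IFIT complex genes and lower in IRF1. IFIT2 was 1.98-fold higher with torcetrapib than with angiotensin II, IFIT3 1.54-fold higher and IFIT1 1.30-fold higher, while IRF1 was 1.23-fold lower. Of the 7 members other than IFIT2, 2 were called higher by limma, against 4.61% of all genes, and 1 lower, against 6.68%. Nothing is read from that count. Over all genes 911 were higher and 1321 lower as deposited, 1739 and 1117 with centred arrays, and 1598 and 1311 after quantile normalisation. In 3 of the 8 members the torcetrapib arrays lay wholly above the angiotensin II arrays, as in 10.3% of all genes, and in 2, MX1 and IRF1, wholly below, as in 18.4%. IFIT2 is among the 3, so nothing is read from these counts either.

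The IFIT2 difference was 0.98 ± 0.10 on the log2 scale, with torcetrapib arrays from 7.04 to 7.31 and angiotensin II arrays from 6.15 to 6.21, and is given with no test. Its second probe set differed by 0.36 ± 0.10. IFIT3 differed by 0.62 ± 0.08 (limma adjusted p = 8.83e-05), with torcetrapib arrays from 8.90 to 8.98 and angiotensin II arrays from 8.10 to 8.46. Its second probe set differed by 0.42 ± 0.09 (limma adjusted p = 0.0101 over all probe sets, of which 11.6% were called). IFIT1 differed by 0.38 ± 0.08 (limma adjusted p = 0.00757), with torcetrapib arrays from 8.13 to 8.20 and angiotensin II arrays from 7.68 to 7.95. Groups did not overlap in any of these.

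IRF1 was lower by 0.30 with torcetrapib than with angiotensin II (log2 difference -0.30 ± 0.08, limma adjusted p = 0.0194). That call rests on the brightest probe set and on single arrays. The second probe set had overlapping groups and a difference of -0.05 ± 0.08. Without angiotensin II replicate 3, torcetrapib replicate 1 or torcetrapib replicate 3 the adjusted p was 0.0644, 0.0833 and 0.0789, and with the mean of the probe sets 0.115 (range over its alternatives 0.00176 to 0.651).

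The RNA index did not overlap between these groups, from -0.28 to -0.22 with torcetrapib and from -0.63 to -0.60 with angiotensin II. With the index as a term in the model 0 of the 7 members other than IFIT2 were called in this comparison. IFIT3 then differed by 0.57 (adjusted p = 0.0624, range over its alternatives 1.94e-07 to 0.0624), IFIT1 by 0.23 (adjusted p = 0.717, range 2.44e-05 to 0.717) and IRF1 by -0.26 (adjusted p = 0.651). Against DMSO the falls of IFIT3 and IFIT1 with angiotensin II were called with the index as well. RNA quality and treatment cannot be told apart between torcetrapib and angiotensin II here.

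The other members did not pass between the compounds. IFIT5 was 0.20 ± 0.08 higher with torcetrapib than with angiotensin II on the log2 scale (limma adjusted p = 0.134, 95% interval 0.03 to 0.37), and it passed with the arrays centred on their medians, with quantile normalisation and with array weights (adjusted p = 0.0274, 0.0188 and 0.0220, range 0.0188 to 0.847). Its groups overlapped, as did those of the second IFIT5 probe set, which gave 0.06 ± 0.09. MX1 differed by -0.31 ± 0.11 (limma adjusted p = 0.0779, 95% interval -0.53 to -0.08). It passed with array weights at -0.22 (adjusted p = 0.0326, all alternatives 0.0326 to 0.948) and was -0.10 with the RNA index. ISG15 differed by -0.16 ± 0.09 (95% interval -0.34 to 0.03). OAS1 differed by -0.01 ± 0.09 (95% interval -0.19 to 0.18) by its brightest probe set, and by 0.47 ± 0.14 by the other (limma adjusted p = 0.0536 over all probe sets), whose groups did not overlap.

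Genes around the members in the interferon pathway were read from 5 lists drawn from general knowledge, with earlier results of these data known. The numbers called in these lists are therefore descriptions beside the share of all genes, and nothing is read from them. Counts at an unadjusted p have no such share beside them, and nothing is read from those either. The list of 45 other interferon-induced effectors, with 44 measured, holds relatives such as MX2, OAS2, OAS3, RSAD2 and the IFITM genes. With angiotensin II 1 of 44 rose and 0 fell (limma, 8 with an unadjusted p under 0.05), where 3.36% of all genes were called higher and 2.76% lower. Its changes ran from -0.17 to 0.49, with a median of 0.00 beside 0.01 over all genes. With the arrays centred on their medians 4 fell, with quantile normalisation 3 and with array weights 4. The gene that rose was GBP1, an interferon-induced GTPase that attacks membranes around intracellular pathogens. It read 9.71, 9.60 and 9.56 with angiotensin II, against 9.22, 8.98 and 9.19 with DMSO, and the groups did not overlap. GBP1 rose by 0.49 ± 0.07 (limma adjusted p = 0.00015), and 3 of its 4 probe sets passed over all probe sets, the fourth being dim at 3.54.

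With torcetrapib 0 of the 44 effectors rose or fell against DMSO (limma, 5 with an unadjusted p under 0.05, and 1 lower with array weights or without DMSO replicate 2). Their changes ran from -0.21 to 0.17 with a median of -0.04 beside -0.03 over all genes. Between the compounds, torcetrapib against angiotensin II, 1 was higher and 2 were lower, where 4.61% and 6.68% of all genes were. GBP1 was lower by 0.40 (log2 difference -0.40 ± 0.07, limma adjusted p = 0.00107) and OAS2 had a difference of -0.39 ± 0.11 (adjusted p = 0.0389), from a dim 4.43 with torcetrapib and 4.82 with angiotensin II. That OAS2 probe set did not pass over all probe sets (limma adjusted p = 0.0524), and the others of OAS2 gave -0.26 and -0.04. PSMB8, a subunit of the immunoproteasome, was higher by 0.27 ± 0.07 (adjusted p = 0.0278). With the RNA index in the model 0 of the list were called in either direction. Without angiotensin II replicate 1 or 2, or torcetrapib replicate 1 or 2, 0 were higher, and with any single array of either compound left out 1 was lower.

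Neither sensors nor interferon ligands and receptors held a call against DMSO. Of 13 nucleic acid sensors, adaptors and kinases, such as RIGI, IFIH1, CGAS and TBK1, 0 were called with torcetrapib (limma, 1 with an unadjusted p under 0.05) and 0 with angiotensin II (2 unadjusted). Of 12 interferon ligands and receptors 0 were called with torcetrapib (1 unadjusted) and 0 with angiotensin II (3 unadjusted). The probe sets of 5 of the 6 ligands were dim, with means over 9 arrays from 3.03 to 4.52, under the lowest-quarter limit, so they say little about interferon itself. Among the ligands and receptors, 2 were lower with torcetrapib than with angiotensin II, the receptor chains IFNGR2 (log2 difference -0.16 ± 0.05, limma adjusted p = 0.0405) and IFNLR1 (-0.33 ± 0.10, adjusted p = 0.0482), and 0 were lower with any single torcetrapib array or angiotensin II replicate 1 left out, or with the index. The brightest IFNLR1 probe set did not pass over all probe sets (limma adjusted p = 0.0690), and the second gave -0.06. Of 14 JAK, STAT and IRF factors 11 were measured and the others were not analysed here. Among the 11, 0 were called with torcetrapib (limma, 3 unadjusted) and 0 with angiotensin II (1 unadjusted). Between the compounds JAK2, the kinase of the interferon gamma receptor, was higher with torcetrapib (0.40 ± 0.10, limma adjusted p = 0.0194) and IRF3 was lower (-0.26 ± 0.06, adjusted p = 0.0128), both without a call once the index was in the model. The other JAK2 probe sets gave 0.17 and -0.03. Without angiotensin II or torcetrapib replicate 2, 0 of this list were higher, and without angiotensin II replicate 1 or torcetrapib replicate 3, 0 were lower.

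Among the inhibitors of interferon signalling, SOCS1 was higher than with DMSO after both treatments. With angiotensin II 4 of 11 rose and 0 fell (limma), where 3.36% of all genes were called higher, with a median change of 0.08 beside 0.01 over all genes. SOCS1, which binds JAK kinases and blocks them, read 10.05, 10.09 and 10.04 with angiotensin II, against 8.21, 7.85 and 8.23 with DMSO. It was 3.90-fold higher (log2 change 1.96 ± 0.08, limma adjusted p = 1.58e-10), with all angiotensin II arrays far above all DMSO arrays. SOCS3, an inhibitor of the same kinases, read 6.83, 6.54 and 7.07, against 5.36, 5.05 and 5.48 with DMSO, 2.86-fold higher (1.51 ± 0.14, limma adjusted p = 2.09e-06). The phosphatase PTPN1, which acts on JAK2 and TYK2, rose by 0.34 ± 0.09 (limma adjusted p = 0.0350), and IRF2BP2, a corepressor that binds IRF2, by 0.33 ± 0.05 (adjusted p = 0.000278).

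With torcetrapib 1 of the 11 inhibitors rose against DMSO, where 0.592% of all genes were called higher. SOCS1 read 8.84, 8.81 and 8.80 with torcetrapib, against 8.21, 7.85 and 8.23 with DMSO, and was 1.65-fold higher (log2 change 0.72 ± 0.08, limma adjusted p = 0.000242). All torcetrapib arrays lay above all DMSO arrays and below all angiotensin II arrays. SOCS3 read 5.93, 5.96 and 5.72 with torcetrapib and had a difference of 0.58 ± 0.14 that did not pass (limma adjusted p = 0.0606), whereas 2 of the list were called with robust variances, with dim genes left out, with either scaling and with array weights. Between torcetrapib and angiotensin II 5 of the 11 were lower and 1 was higher, where 6.68% and 4.61% of all genes were. SOCS1 (-1.24 ± 0.08), IRF2BP2 (-0.32 ± 0.05) and SOCS3 (-0.94 ± 0.14) led the lower ones, with limma adjusted p of 6.94e-08, 0.000399 and 0.000402, and PIAS1 was higher by 0.18 ± 0.06 (adjusted p = 0.0455). With any single array of either compound left out 0 were higher and from 3 to 5 were lower, and with the index 1 was lower.

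The probe sets of these genes did not all move. All 4 SOCS1 probe sets are of the _x_at and _s_at types, and 2 of them rose with angiotensin II, by 1.96 and 1.43, while the other 2, at means of 3.59 and 5.82, gave 0.15 and 0.14. With torcetrapib against DMSO the first 2 gave 0.72 and 0.70, and the other 2 gave -0.02 and -0.18. Of 4 SOCS3 probe sets the brightest alone passed with angiotensin II, and the others gave 0.39, 0.11 and 0.03. The brightest PTPN1 probe set did not pass over all probe sets (limma adjusted p = 0.0864), and the other 3 gave 0.07, 0.04 and -0.07. Of 6 IRF2BP2 probe sets 3 passed, with 0.33, 0.35 and 0.57, and the others gave 0.10, -0.01 and 0.08. Between the compounds the brightest PIAS1 probe set did not pass over all probe sets (limma adjusted p = 0.0586), and the others gave 0.11 and 0.08. Without _x_at and _s_at probe sets 2 of the list rose with angiotensin II and 0 with torcetrapib.

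**Figure D4:**
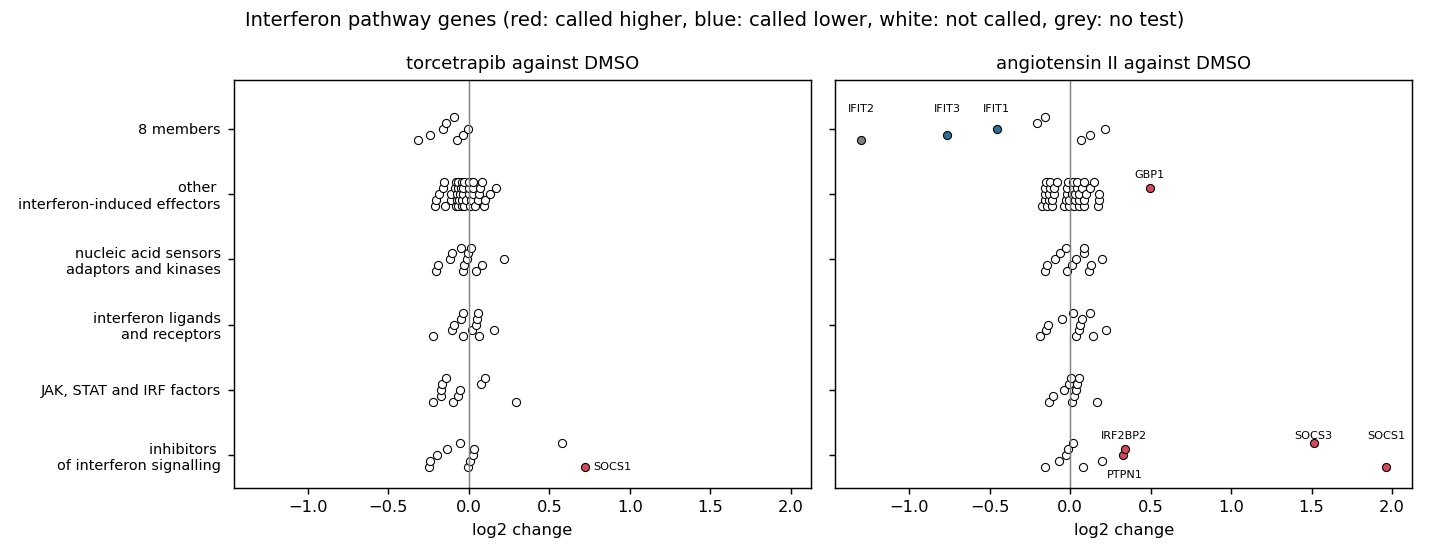
Log2 change against DMSO of the 8 members and of the 5 lists of interferon pathway genes, 1 point a gene, for torcetrapib on the left and angiotensin II on the right. Red points were called higher, blue lower, white were not called and grey is IFIT2 with no test; SOCS1 is the gene called in both panels, at 0.72 with torcetrapib and 1.96 with angiotensin II.

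The profiles of 3 members over the 9 arrays were set against those of all other genes, each gene centred on its own mean. IFIT2 was most like ZNF627, DDIT4L, BBS12 and ARRDC4, with root mean square differences of 0.14, 0.14, 0.15 and 0.17 on the log2 scale, where the spread of IFIT2 itself was 0.56. All 4 read lower with angiotensin II than with DMSO, by 0.94 to 1.21. ARRDC4 is an arrestin-domain protein, DDIT4L an inhibitor of mTOR signalling and BBS12 a chaperonin-like protein of cilia.

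IFIT3 was most like ING2, PRKCQ-AS1, GIN1 and ZNF550, with differences of 0.05, 0.06, 0.07 and 0.08 against a spread of 0.34. ING2 reads histone methylation, and its mean was 9.05 with torcetrapib, 8.49 with angiotensin II and 9.22 with DMSO. IRF1 was most like IL17D, DNMBP, RBM14 and CCNJL, with differences of 0.03, 0.03, 0.04 and 0.04 against a spread of 0.14. None of the 8 members was among the 4 nearest genes of IFIT2, IFIT3 or IRF1. The nearest member to IFIT2 was IFIT3, at 0.27, and the nearest to IFIT3 was IFIT1, at 0.15. These likenesses describe 9 arrays that share their treatments and carry no test.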

How the data were processed

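RNA was extracted with a column kit and labelled with biotin for Affymetrix arrays, per the labels' protocols. The authors deposited log2 values of each probe set. The submitters' processing notes name RMA as the method. Which software and probe annotation they ran it with is not given in the sources used here. No further normalisation was applied. Of 54675 probe sets, 62 were controls and 41091 had a single gene symbol, while 1801 with several symbols and 11721 with none were not tested. Each of 19775 genes was represented by its brightest probe set over 9 arrays.

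Limma 3.58.1 in R 4.3.3 fitted 3 group means to all genes at once, with 6 residual degrees of freedom and a variance trend with intensity. P-values are two-sided and adjusted by Benjamini-Hochberg over all genes, or over all 41091 probe sets for second probe sets, and called under 0.05. The 95% intervals are not adjusted. The fit was tested on simulated data. A change carries its SE. The number of arrays limits the precision.

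The members and the 5 pathway lists were chosen with earlier results of these data known. Named in the text are all members, the called list genes with the smallest adjusted p (up to 3 a direction and comparison) and the 4 nearest profiles of IFIT2, IFIT3 and IRF1. PTPN1, a further inhibitor that rose, was named after its values were seen. Titles number the samples in blocks by group, so processing order cannot be told apart from treatment. Promoter sequences are from RefSeq, GRCh38.p14.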

Additional observations from a re-analysis of the deposited data

How the results depend on the processing

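Among the members, IFIT2, IFIT3 and IFIT1 stayed lower with angiotensin II than with DMSO, and IFIT3 and IFIT1 stayed called, in all 17 alternatives that gave them a value. Over all member changes and alternatives, 374 kept direction and side of the threshold, 7 lost a call, 7 gained one and 14 changed sign. All sign changes were in comparisons where that member had no call. IFIT2 is among the changes counted, and nothing is read from its values that involve angiotensin II. Sign changes against DMSO with torcetrapib were IFIT5 at 0.0297 with array weights, 0.0184 with centred arrays, 0.0196 quantile normalised again, and 0.0271 and 0.0335 without DMSO or torcetrapib replicate 3, and IRF1 at 0.0504 by the mean of its probe sets. With angiotensin II they were MX1 at -8.23e-05 with array weights and -0.0126 without DMSO replicate 2. For OAS1, torcetrapib against angiotensin II, they were 0.0158 with array weights, 0.0400 with centred arrays, 0.229 by the mean of probe sets, 0.0275 quantile normalised again, and 0.00512 and 0.0445 without angiotensin II or torcetrapib replicate 3. With an array left out, these ran from -0.0308 to 0.0335 (IFIT5), -0.0126 to 0.115 (MX1) and -0.0333 to 0.0445 (OAS1). The cause was not tested.

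With IFIT2 counted, members called numbered 5 instead of 3 with angiotensin II after quantile normalisation, where 1748 of 19775 genes were called instead of 1210. With torcetrapib by array weights they numbered 1, IFIT2, instead of 0, where 1272 genes were called. Between the compounds with the RNA index they numbered 1, again IFIT2, instead of 4, where 280 genes were called. IFIT2 values that involve angiotensin II are descriptions, so nothing is read from these counts. All genes called with angiotensin II numbered 1210, 2712 with array weights and 767 at a threshold of 0.01. With torcetrapib they numbered 229, against 76 with the index, 1272 with array weights, 374 with centred arrays, 431 quantile normalised again, 108 by the mean of probe sets, 136 without _x_at and _s_at types, 50 without the variance trend, 145 with only both groups fitted, 78 and 503 at thresholds of 0.01 and 0.1, and from 83 to 917 with an array left out, the highest without DMSO replicate 2. Between the compounds they numbered 2232, against 280 with the index, 6216 with array weights, 1104 at 0.01, and from 1351 to 2193 with an array left out. The weights put angiotensin II replicate 1 at 6.15. Counts of the pathway lists under these alternatives were added after seeing the data. No paired analysis was possible because the groups share no replicate numbers in the labels.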

Other observations

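Exact ties between arrays are common in the deposited values. Of 54675 probe sets 28471, or 52.1%, carry the same value to every digit on 2 or more of the 9 arrays, and 4 of the 13 member probe sets do. The second IFIT2 probe set reads 6.38 with identical digits on torcetrapib replicate 3 and on DMSO replicates 1 and 3, and OAS1 reads 7.18 with identical digits on torcetrapib replicates 1 and 2.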
